A study of Drosophila melanogaster with 46 samples.

Results

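The 6 dark-hour head pools of old wild-type flies were set against the 6 light-hour pools of the same flies. These 12 libraries of the 46 in the series were grouped by collection time. Zeitgeber time (ZT, hours after lights on) 12, 16, 20, 36, 40 and 44 gave the WT-old dark group. ZT0, 4, 8, 24, 28 and 32 gave the WT-old light group. The levels of yolk protein and roX RNAs in the dark pools, described below, were already known when this contrast was drawn up. WT-old flies carried the labelled Canton-S w1118 (iso1CJ) background and were 49 days old, and the same background at 27 days gave 5 WT dark libraries (ZT12, 16, 20, 36 and 44) and 5 WT light libraries (ZT0, 4, 8, 24 and 32). WT ZT28 and ZT40 were not used here. Each library was 1 pool of whole heads from light-dark cycles, described by the study as of mixed sexes, so a timepoint had no replicate of its own. Timepoints of one phase served as replicates, and the p-values therefore measured the spread between timepoints. The remaining 24 libraries came from inc1 and wakeD2 flies at Day 27. Total counts were 20495730 to 29802881 in WT-old dark libraries and 16994798 to 26201388 in WT-old light libraries, so that 3 counts corresponded to at most 0.137 and 0.18 CPM (counts scaled to the library total).

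Yolk proteins are made by the fat body and ovary of females and are taken up by the egg, and fat tissue surrounds the brain inside the head capsule. Males raise transcription of their single X chromosome with the MSL complex, a set of proteins bound to the non-coding RNAs roX1 and roX2, whereas in females the switch protein Sxl blocks translation of msl-2. Yolk protein RNA and roX RNA therefore mark female and male material in a pool of heads. The daily clock adds its own difference between dark and light hours: CLK and CYC activate per and tim in the evening, and the PER and TIM proteins later repress them.

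The WT-old dark libraries stood apart from every other library of the series in yolk protein RNA and in roX1. Yp1, Yp2 and Yp3 together took 0.0115% to 0.73% of reads in the 6 WT-old dark libraries (median 0.0138%), against 4.33% to 12.2% in the other 40 libraries. roX1 reached 1389 to 1542 CPM (per total counts) in the WT-old dark libraries, against 436 to 864 CPM in the other 40. roX2 measured 18.8 to 41.9 CPM in the WT-old dark libraries and 5.98 to 22.5 CPM elsewhere, with an overlap. These pools were described as of mixed sexes like the others, and their sex composition was not measured by anything but such markers. Sex composition and time of day cannot be told apart within the WT-old libraries, and every value below that sets dark against light carries that limit. In bulk heads, fewer cells of a type and less RNA per cell cannot be told apart either.

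Body tissue was also unevenly present. The summed level of 14 accessory gland genes was 0.345 to 0.762 CPM in WT-old dark libraries and reached 59.4 CPM in the WT-old light group, at ZT32. The same sum passed 10 CPM in 2 of 5 WT dark libraries (ZT36 and ZT44) and 1 of 5 WT light libraries (ZT4). Results that rested on the age comparison were therefore also computed without those 4 libraries, a choice made after seeing the data.

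Yolk protein RNA was lower in every WT-old dark library than in any WT-old light library, and the dark libraries fell into 2 levels. After TMM normalization, Yp1 measured 2917 CPM at ZT12 and 2106 CPM at ZT36, and 16.4 to 28.8 CPM in the remaining 4 WT-old dark libraries. The WT-old light libraries held 17103 to 28163 CPM (median 23991). The ZT12 and ZT36 pools, taken at the start of the dark phase, thus averaged 10.6% of the light mean, and the later dark pools 0.0894%. Yp1 was lower by 4.80 on the log2 scale in WT-old dark heads (SE 1.08, edgeR quasi-likelihood test, Benjamini-Hochberg adjusted p = 0.0032), with a log2 difference of -0.01 in WT heads, where dark libraries held 17452 to 30871 CPM and light libraries 23138 to 27984 CPM. The difference of that change between ages missed the threshold (log2 -4.79, adjusted p = 0.067) and passed it when the WT-old ZT12 library was left out (adjusted p = 0.0264). Over leaving out each library in turn, that p for Yp1 ran between 0.0264 and 0.115. It also passed with DESeq2 (0.0108), over 3 genotypes at Day 27 (6e-05), in the fit to 46 libraries (0.003), with collection timepoint as a replicate block (0.0296), with hour levels (7.8e-12), and without ZT12 and ZT36 (3.8e-14) or the hours of the light switch (5.1e-11), and it rose to 0.206 without the libraries that held body-tissue genes.

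The other female transcripts followed the same order of libraries. Yp2 measured 9.36, 18.1 and 2019 CPM (lowest, median and highest) in WT-old dark heads, against 13035, 17736 and 20007 CPM in WT-old light heads (log2 fold change -4.91, adjusted p = 0.003). Yp3 measured 80.3, 82.7 and 1877 CPM in WT-old dark heads and 13468, 16568 and 21068 CPM in WT-old light heads (log2 -4.78, adjusted p = 0.00012). For Yp3 the change also differed from that in WT (log2 -4.76, adjusted p = 0.0083), while for Yp2 that difference had an adjusted p of 0.065. fit, which encodes a secreted peptide of the head fat body with more RNA in females, measured 10.7, 28.1 and 243 CPM in WT-old dark heads and 381, 519 and 608 CPM in WT-old light heads. Its log2 fold change was -2.85 (adjusted p = 0.0011), and it differed from WT by -3.34 (adjusted p = 0.02). That difference was not called for fit without the libraries that held body-tissue genes (-3.44, adjusted p = 0.075, between 9.5e-07 and 0.075 over the alternatives other than single libraries). All 4 genes of the female list were thus lower in WT-old dark heads with no overlap between the groups, beside 10.7% of the 9969 tested genes called lower and 5.45% lower without overlap. No member was called in WT. Since yolk RNA and both roX RNAs described these pools before the genes were tested, their counts were not independent of how the contrast was drawn up.

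roX1 showed the opposite pattern with a narrow spread. It measured 1296, 1363 and 1385 CPM in WT-old dark heads and 629, 709.5 and 850.3 CPM in WT-old light heads. The groups were separated by a wide gap, unlike in WT, where 753 to 869.8 CPM in dark libraries overlapped 708 to 869.6 CPM in light libraries. The WT-old light libraries overlapped the WT range, and the WT-old dark libraries lay above every WT library. The log2 fold change of roX1 was 0.89 (SE 0.0679, adjusted p = 2.3e-08) in WT-old and 0.08 in WT, and the difference between ages was 0.81 (adjusted p = 5.3e-05). roX1 in the ZT12 and ZT36 pools averaged 180% of the light mean, close to the 189% of the later dark pools, although yolk RNA differed many-fold between those same pools.

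**Figure D1:**
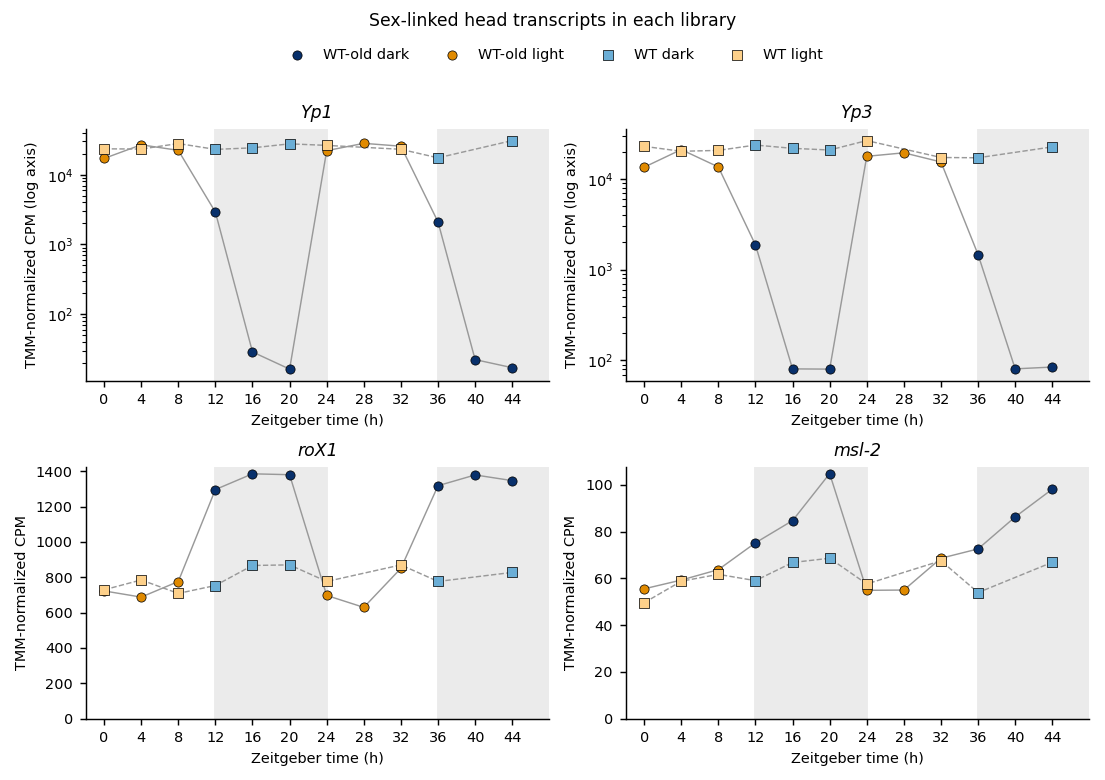
TMM-normalized CPM of the yolk protein genes Yp1 and Yp3 (log axis) and of roX1 and msl-2 (linear axis) against Zeitgeber time in hours, 1 point per library, circles for WT-old and squares for WT, with dark hours shaded. WT-old dark Yp1 lies at 2917 and 2106 CPM at ZT12 and ZT36 and at 16.4 to 28.8 CPM in the later dark pools, while roX1 lies at 1296 to 1385 CPM in all 6.

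Of the 7 genes of the MSL complex, 4 were higher in WT-old dark heads, beside 7.36% of all tested genes, and none was lower or called in WT. The level of roX1 and roX2 in the dark pools was known when the contrast was chosen, so that their calls are a description. The other 2 were msl-2, the male-specific subunit that limits assembly of the complex, and mof, its histone H4 acetyltransferase. roX2 measured 17.6, 29 and 39.1 CPM in WT-old dark heads and 8.61, 13 and 16.4 CPM in WT-old light heads (log2 1.17, adjusted p = 0.0021). msl-2 measured 72.6, 85.5 and 105 CPM in WT-old dark heads and 54.8, 57.4 and 68.6 CPM in WT-old light heads (log2 0.55, adjusted p = 0.00029). These groups did not overlap for either gene. mof measured 10.8 to 16 CPM in WT-old dark heads and 7.8 to 11.2 CPM in WT-old light heads, with a small overlap (log2 0.46, adjusted p = 0.0016). The scaffold subunits msl-1 (log2 -0.03) and msl-3 (0.15) and the RNA helicase mle (0.10) were not called. Among these 7 genes the difference from WT passed the threshold for roX1, while for roX2, msl-2 and mof it had adjusted p values of 0.21, 0.076 and 0.064. With collection timepoint as a replicate block it was called for roX2 (adjusted p = 0.00045) and msl-2 (0.0054) and not for mof (0.065), and with hour levels for roX2 (3.1e-05), msl-2 (0.002) and mof (0.01).

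Genes of the X chromosome had no larger median shift than those of the autosomes. The median log2 fold change of its 1599 tested genes was -0.001, with 130 called higher and 180 lower (19.4% called, beside 18% of all genes), and the autosomal arms 2L, 2R, 3L and 3R had medians between 0.00 and 0.02. Of the 10 sex determination genes, 1 was called, beside 18% of all tested genes. fl(2)d, a splicing cofactor of Sxl, measured 121 to 130.2 CPM in WT-old dark heads and 95.9 to 115 CPM in WT-old light heads (log2 0.21, adjusted p = 0.0028), and its change differed from WT by 0.27 (adjusted p = 0.028). Without the libraries that held body-tissue genes that difference was not called for fl(2)d (adjusted p = 0.19, between 0.00028 and 0.21 over all alternatives other than single libraries). Sxl had a log2 fold change of -0.21 (adjusted p = 0.13) and dsx, the final switch of somatic sex, one of -0.22 (adjusted p = 0.1). With hour levels, which called 3558 genes in WT-old, both were called lower in WT-old dark heads. The values were -0.20 for Sxl (adjusted p = 0.0042) and -0.22 for dsx (adjusted p = 0.021). These counts were per gene, so that sex-specific splice forms of Sxl, tra and dsx were not measured.

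Of the 4 male head genes, 3 were higher in WT-old dark heads, beside 7.36% of all tested genes. None was called in WT, where 0.271% of all tested genes were. Cyp4d21, a cytochrome P450 enriched in male head fat body, measured 240.1, 376 and 422 CPM in WT-old dark heads and 118, 170.2 and 216 CPM in WT-old light heads. Its log2 fold change was 1.14 (adjusted p = 6.6e-05). In WT it measured 206 to 361 CPM in dark libraries and 140.5 to 214 CPM in light libraries, a log2 difference of 0.70 that was not called (adjusted p = 0.15) but was called when each hour of the day had its own level (0.79, adjusted p = 0.000155). Cyp4d21 is thus the male gene of this list with a dark-hour excess at both ages under that model. sxe2, a lipase gene, had a log2 fold change of 0.46 (adjusted p = 0.0018) and the odorant binding protein gene Obp99b one of 1.71 (adjusted p = 0.002). Obp99b measured 60, 127 and 157 CPM in WT-old dark heads and 6.84, 40.5 and 50.5 CPM in WT-old light heads, against 10.7 to 35.2 CPM in WT dark and 5.43 to 11.5 CPM in WT light heads. The remaining gene of this male list, the feeding and clock output gene to (takeout), ran the other way. Its log2 difference of -0.56 was not called with group means (adjusted p = 0.19). When each hour of the day had its own level, to was called lower in WT-old dark heads (-0.56, adjusted p = 0.00016).

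Across all genes, 734 were higher (7.36%) and 1064 lower (10.7%) in WT-old dark heads. Changes of at least 2-fold were rarer and leaned to the lower side, with 33 genes higher (0.331%) and 162 lower (1.63%). The 6 dark libraries lay wholly above the 6 light libraries for 289 genes (2.9%) and wholly below for 543 (5.45%), 8.35% of genes together. In WT the same contrast called 11 genes higher (0.11%) and 16 lower (0.16%), and 763 genes had an unadjusted p under 0.05. The difference between the ages passed the threshold for 374 genes (3.75%), 79 of them with the more positive change in WT-old (0.792%) and 295 with the more negative (2.96%). Of the 1798 genes called in WT-old, 22 were called in WT in the same direction, 359 differed from WT, and 1417 did neither. The changes of these 1417 genes had the same sign in WT for 73.3%, beside 55.1% of all tested genes and 36.2% of the 359 that differed. The sorting itself used the WT change, so these shares follow in part from it and are a description only. Their median log2 fold changes in WT-old were 0.31 (653 higher) and -0.42 (764 lower), with medians of 0.06 and -0.09 for the same genes in WT. The 359 genes kept their direction without the libraries that held body-tissue genes, where 176 of them still passed the test. In a fit to all 46 libraries, those with body-tissue genes included, 353 of the 359 differed from the mean of all 3 Day 27 genotypes. That fit reused the WT-old and WT libraries that had picked the 359, so the 353 are not independent support. Under it, 306 higher and 793 lower genes were called in WT-old and differed from Day 27. Age and sex composition cannot be told apart in the difference between ages, since the libraries with little yolk RNA were all from WT-old.

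**Figure D2:**
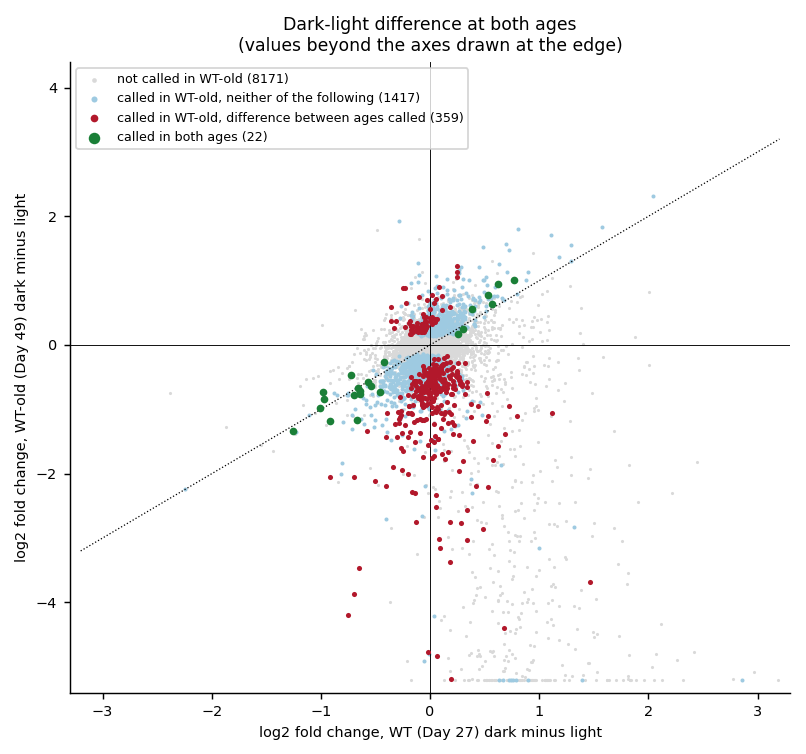
Log2 fold change of dark over light in WT-old (vertical axis) against that in WT at Day 27 (horizontal axis) for each tested gene, with values beyond the axis limits drawn at the limit, a dotted line of equal change, and colours for 8171 genes not called in WT-old, 1417 called in WT-old that were neither of the following, 359 that differ between ages and 22 called at both ages. The 22 genes called at both ages all have the same sign on both axes.

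The most confidently lower genes of at least 2-fold and without overlap between the groups were Obp56e, Ttc30, Acox57D-d, Root, CG13360, pyd3, Obp83cd, CG33120, su(r) and Nepl4, of 125 such genes. Obp56e, an odorant binding protein gene, measured 77.6, 87.8 and 169 CPM in WT-old dark heads and 432, 562 and 735 CPM in WT-old light heads. Its highest dark value was from ZT12, and every WT library lay between 558 and 699 CPM. The log2 fold change was -2.52 (SE 0.162, adjusted p = 4.8e-09), with 0.06 in WT. Obp83cd, of the same family, measured 0.489, 1.12 and 1.97 CPM in WT-old dark heads and 6.4, 7.69 and 9.32 CPM in WT-old light heads (log2 -2.76, adjusted p = 4.9e-08), against 5.52 to 9.99 CPM in WT. In both genes the WT-old light libraries overlapped the WT range and the WT-old dark libraries all lay below it.

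Among these genes, Root and Ttc30 were grouped by a role in cilia after their values were seen. No list of cilia genes was counted, so nothing is said here of such genes as a class. Root encodes rootletin of the ciliary rootlet in sensory neurons, and Ttc30 a component of intraflagellar transport. Root measured 3.07, 3.56 and 4.89 CPM in WT-old dark heads and 9.36, 16 and 18 CPM in WT-old light heads (log2 -2.01, adjusted p = 2.3e-08), while WT libraries held 24 to 38.6 CPM in the dark and 26.9 to 36.2 CPM in the light. Root was therefore lower in all 12 WT-old libraries than in any WT library, and lowest in the dark group. Ttc30 measured 5.87, 6.81 and 7.5 CPM in WT-old dark heads and 15.1, 17.5 and 24.3 CPM in WT-old light heads (log2 -1.47, adjusted p = 1.8e-08), against 14.5 to 18.6 CPM over all WT libraries.

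Enzymes made up several of the others. su(r), dihydropyrimidine dehydrogenase, and pyd3, beta-ureidopropionase, act at the first and last steps of pyrimidine breakdown. su(r) measured 43.4, 51.5 and 56.8 CPM in WT-old dark heads and 102, 121 and 134 CPM in WT-old light heads (log2 -1.25, adjusted p = 5.3e-08). pyd3 measured 32.2, 37.1 and 43.2 CPM in WT-old dark heads and 64.6, 77.1 and 92.1 CPM in WT-old light heads (log2 -1.04, adjusted p = 4e-08). Both lay below the WT range in the dark group, which was 81.8 to 128 CPM for su(r) and 51.9 to 68.4 CPM for pyd3. CRMP, the enzyme gene between them in the pathway, was not called (log2 -0.14, adjusted p = 0.37), a gene looked up after the values of its neighbours were seen. Acox57D-d, an acyl-CoA oxidase gene of peroxisomal fat breakdown, measured 6.39 to 9.08 CPM in WT-old dark heads and 15.5 to 18.7 CPM in WT-old light heads (log2 -1.23, adjusted p = 2.3e-08). Nepl4, a neprilysin-like peptidase gene, differed in another way, with 4.91 to 8.46 CPM in WT-old dark heads and 26 to 74.7 CPM in WT-old light heads around a WT range of 15.2 to 21.8 CPM (log2 -2.75, adjusted p = 5.5e-08). For Nepl4 the WT-old groups thus lay on opposite sides of WT. The remaining 2, CG13360 (log2 -1.43) and CG33120 (log2 -1.22), have no role given here.

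Ndg was the gene with the deepest fall among the 10 whose change differed from WT with the smallest p. It encodes nidogen, a basement membrane protein, and measured 3.01, 4.76 and 15.8 CPM in WT-old dark heads and 50.3, 60.6 and 73.1 CPM in WT-old light heads. The WT libraries held 44.3 to 60.4 CPM. Its log2 fold change was -3.15 (SE 0.287, adjusted p = 1.2e-07), and the difference from WT was -3.24 (adjusted p = 5.3e-05). Ndg averaged 21.1% of the light mean at ZT12 and ZT36 and 6.51% in the later dark pools, the same order of levels as yolk RNA. Over the 285 lower genes that differed from WT this order was weak: the mean at ZT12 and ZT36 had a median of 62.4% of the light mean, against 57.9% in the later dark pools. In 27% of these genes both early dark pools lay above all 4 later ones, beside 20.8% of all tested genes. In WT, which had fewer later dark pools, these shares were 28.1% and 25%. CG43402 (log2 -1.96, adjusted p = 5.5e-08) and CG42336 (log2 -0.68, adjusted p = 6.1e-08) were also among the 10.

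The 10 most confidently higher genes, of 21 that rose by at least 2-fold without overlap, were a10, CG9150, CG8925, Cpr100A, Cyp4d21, CG8620, lncRNA:CR42646, Cpr64Ac, bnl and CG5172. a10, which encodes a small protein of the antenna, measured 17.7, 19.2 and 22.6 CPM in WT-old dark heads and 7.99, 9.41 and 11 CPM in WT-old light heads (log2 1.05, adjusted p = 2.2e-06), against 6.88 to 12.6 CPM in WT. CG9150 measured 119, 155 and 185 CPM in WT-old dark heads and 52.3, 65 and 82.4 CPM in WT-old light heads (log2 1.23, adjusted p = 1.5e-05), against 32.6 to 73.5 CPM in WT. For both genes the WT-old dark libraries lay above every WT library, and the change differed from WT by 0.81 for a10 (adjusted p = 0.011) and 0.98 for CG9150 (adjusted p = 0.021). For a10 the difference was not called over 3 genotypes (adjusted p = 0.075), in the fit to 46 libraries (0.129), without the hours of the light switch (0.167) or without the libraries that held body-tissue genes (0.0779), and ran down to 0.0011 under the other alternatives. bnl, the FGF ligand that guides tracheal branching, measured 22, 31.4 and 52.5 CPM in WT-old dark heads and 12.1, 16.8 and 19.3 CPM in WT-old light heads (log2 1.12, adjusted p = 0.00034). The cuticle protein genes Cpr100A (log2 1.14, adjusted p = 4.2e-05) and Cpr64Ac (log2 1.48, adjusted p = 0.00034) had low levels, up to 7.3 CPM for Cpr100A and 4.59 CPM for Cpr64Ac. CG5172 had the largest fold change of the 10, with 6.22, 9.69 and 26.3 CPM in WT-old dark heads and 2.16, 3.72 and 4.33 CPM in WT-old light heads (log2 1.81, adjusted p = 0.00035).

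**Figure D3:**
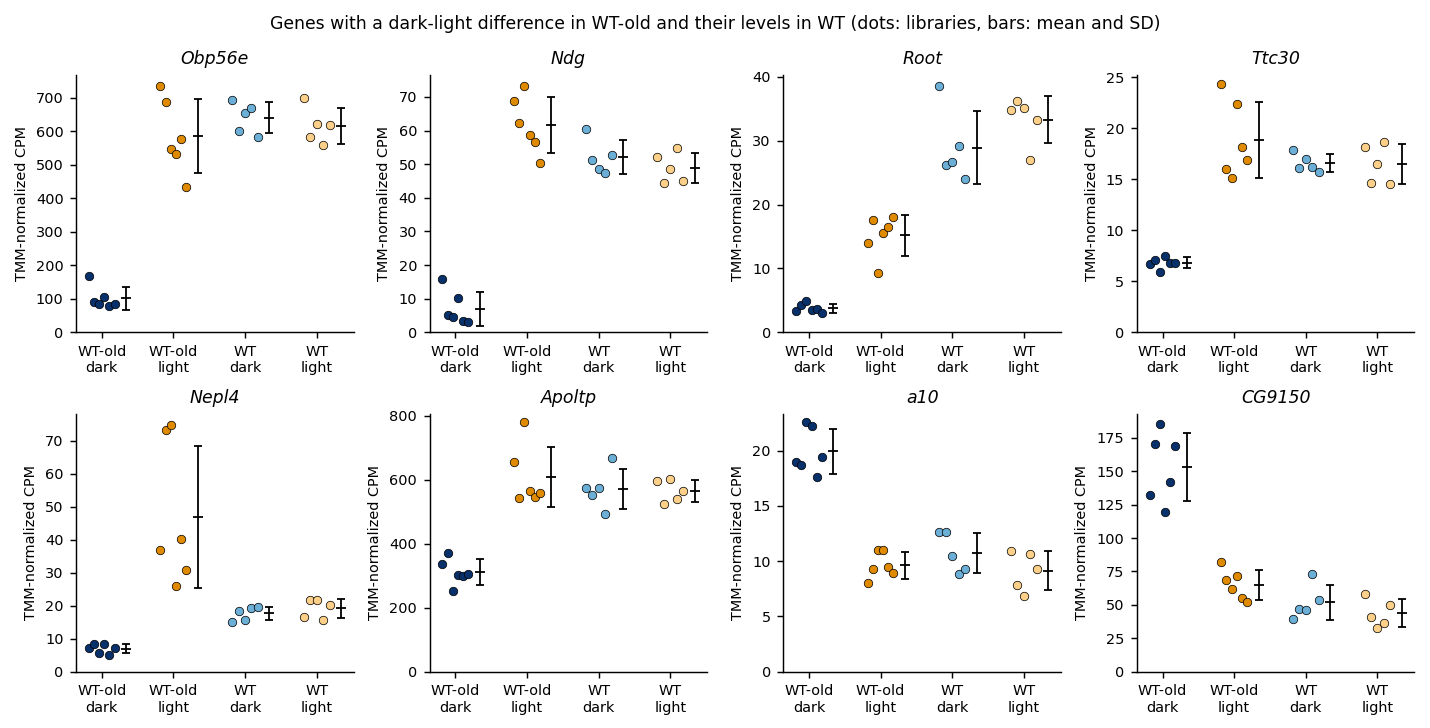
TMM-normalized CPM (linear axes from 0) of 8 genes in WT-old dark, WT-old light, WT dark and WT light libraries, with dots for libraries and bars for the mean and SD. Obp56e at 77.6 to 169 CPM, Ndg at 3.01 to 15.8 CPM and Ttc30 at 5.87 to 7.5 CPM lie below the other 3 groups in WT-old dark heads, and a10 at 17.7 to 22.6 CPM lies above them.

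Fat body genes had the largest share of members called lower among the lists of tissues and cell types. Of 9 tested members of the list, 7 were lower in WT-old dark heads and none higher, beside 10.7% and 7.36% of all genes. The median log2 fold change was -0.82 beside 0.01 over all genes. The change differed from WT in 6, beside 3.75% of all genes, and none was called in WT, beside 0.271% of all genes. Lsp2 and Fbp1 belong to the storage protein system of the larval and adult fat body, and Fbp1 measured 0.0978, 0.321 and 0.869 CPM in WT-old dark heads and 2.64, 3.87 and 5.82 CPM in WT-old light heads (log2 -3.47, adjusted p = 3.1e-05). Some of the dark values of Fbp1 were at or below the level of 3 counts. Apoltp, a lipid transfer protein of the haemolymph, measured 253, 303 and 372 CPM in WT-old dark heads and 541, 561 and 779 CPM in WT-old light heads (log2 -0.96, adjusted p = 5.9e-07), against 492 to 667 CPM in WT. The lipid droplet proteins Lsd-1 (log2 -0.83, adjusted p = 5.2e-05) and Lsd-2 (log2 -0.56, adjusted p = 4.8e-05), the lipoprotein apolpp (log2 -0.82) and the adipokinetic hormone receptor AkhR (log2 -0.82) were the other called members, besides Lsp2 (log2 -3.02). The lipase gene bmm (log2 -0.03) and Lsp1beta (log2 -0.02) were not called. The female-specific yolk genes and fit are themselves largely fat body transcripts, and the part of cell composition in this result was not tested.

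Enzymes of fat synthesis had a smaller median change. Of 12 genes 7 were lower, beside 10.7% of all tested genes, and none higher, with a median log2 fold change of -0.43 (-0.17 in WT), and leaving out any of 5 single WT-old libraries (ZT16, ZT40, ZT0, ZT24 or ZT28) reduced the 7 to 4. FASN1, the main fatty acid synthase, measured 919, 1003 and 1291 CPM in WT-old dark heads and 1978, 2119 and 2595 CPM in WT-old light heads (log2 -1.05, adjusted p = 1.4e-06). FASN1 also differed from WT, where dark libraries held 1533 to 2364 CPM and light libraries 2100 to 2733 CPM (difference of log2 changes -0.75, adjusted p = 0.012). ACC (acetyl-CoA carboxylase, log2 -0.57, adjusted p = 0.0002), Men (malic enzyme, log2 -0.61, adjusted p = 0.00015) and ATPCL (ATP citrate lyase, log2 -0.40, adjusted p = 0.00038) supply its substrates. For ACC and ATPCL the WT changes were -0.34 and -0.21, of the same sign, and their difference from WT was not called (adjusted p = 0.42 and 0.36).

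Of 9 haemocyte genes 6 were lower, beside 10.7% of all tested genes, with a median log2 fold change of -0.49 over the 9, against 0.01 in WT. The phagocytic receptor gene eater measured 2.73, 5.32 and 6.61 CPM in WT-old dark heads and 7.43, 9.21 and 10.5 CPM in WT-old light heads (log2 -0.89, adjusted p = 0.0015), against 10.1 to 18.1 CPM in WT. The WT-old light libraries were thus mostly below WT, and the dark libraries lower still. Hml, a clotting protein gene, had a log2 fold change of -0.61 (adjusted p = 0.0086), and the collagen IV genes Col4a1 and vkg, which the fat body also expresses, had -0.56 (adjusted p = 0.0032) and -0.51 (adjusted p = 0.0043). The scavenger receptor gene crq (log2 -0.34, adjusted p = 0.0025) and the GATA factor gene srp, used by both fat body and haemocytes (log2 -0.49, adjusted p = 0.00049), completed the 6. NimC1 (-0.42, adjusted p = 0.057), Pxn (-0.13) and He (-0.13) were not called.

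Photoreceptor genes were the cell-type list with the most members called higher, 5 of 17 with none lower, beside 7.36% of all tested genes. The rhodopsin genes Rh4 (log2 0.48, adjusted p = 0.0002) and Rh6 (log2 0.53, adjusted p = 0.0049), the light-activated channel gene trp (log2 0.46, adjusted p = 7.3e-05) and the lipid signalling genes rdgA (log2 0.31, adjusted p = 0.0092) and rdgB (log2 0.32, adjusted p = 0.025) rose. trp measured 3290, 3438 and 3560 CPM in WT-old dark heads and 2340, 2501 and 2579 CPM in WT-old light heads, whereas WT libraries held 2934 to 4239 CPM. In trp it was thus the WT-old light group that lay below WT. ninaE, the most abundant rhodopsin, measured 29696 to 37975 CPM in WT-old dark heads and 29514 to 36870 CPM in WT-old light heads (log2 0.03, adjusted p = 0.81). The median over the 17 genes was 0.05. In the fit to all 46 libraries 3 of the 17 passed the test, and rdgA did not (adjusted p = 0.167, and 0.0013 at the lowest under the other alternatives).

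No member was called in either direction among the markers of neurons (12) and glia (9) or the antimicrobial peptide genes (14). The same held for the clock kinases and their partners (12) and the activity-regulated genes (8), beside 18% of all tested genes called. At that share, lists this short hold few calls, so their absence says little. With DESeq2, 1 antimicrobial peptide gene was called lower. Of 12 muscle genes, TpnC41C (troponin C, log2 0.39, adjusted p = 0.023) was higher and the titin-like sls (log2 -0.25, adjusted p = 0.01) lower, beside 7.36% and 10.7% of all tested genes. The call of TpnC41C was lost without ZT12 and ZT36 (adjusted p = 0.16, between 0.0016 and 0.16 over the alternatives other than single libraries). Hsp26 (log2 1.55, adjusted p = 0.015) and Hsp70Bb (log2 1.02, adjusted p = 0.033), 2 of 9 tested heat shock genes, were higher in WT-old dark heads, beside 7.36% of all tested genes. Hsp26 measured 8.64, 14.1 and 46.7 CPM in WT-old dark heads and 5.23, 7.27 and 8.94 CPM in WT-old light heads, and averaged 551% of the light mean at ZT12 and ZT36 against 165% in the later dark pools. Hsp70Bb has near-identical copies whose reads the counting could split. Its call was lost in 5 of 22 fits without a single library, without ZT12 and ZT36 (log2 0.62, adjusted p = 0.186) and without the hours of the light switch (0.39, adjusted p = 0.407), and its lowest p under the other alternatives was 0.0085. Of 12 testis genes mia, a testis transcription factor gene, was higher (log2 0.66, adjusted p = 0.00031), beside 7.36% of all tested genes. The other call, Mst98Ca, was lost in 12 of 22 fits without a single library and rested on 15.5 CPM at ZT32 alone, with the remaining 11 WT-old libraries at 0 to 0.0627 CPM, and its log2 fold change turned to 1.70 without that library.

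**Figure D4:**
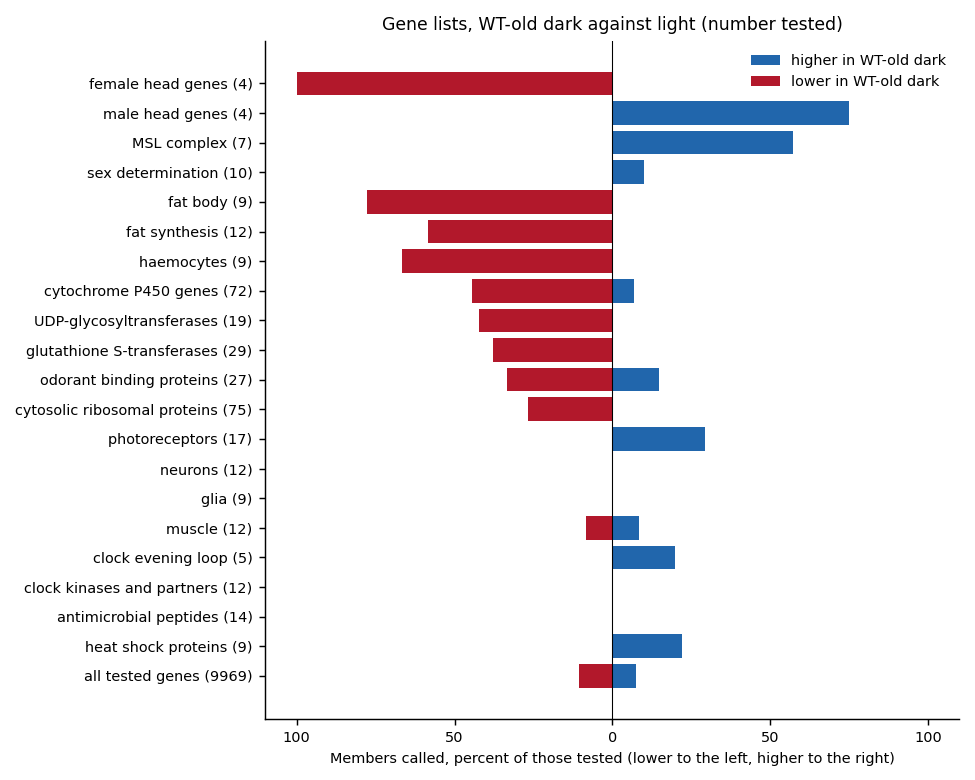
Percentage of the tested members of each gene list called higher or lower in WT-old dark heads against WT-old light heads (adjusted p under 0.05), beside the 7.36% and 10.7% of all tested genes. The female, fat body, fat synthesis and haemocyte lists lie on the lower side and the male, MSL and photoreceptor lists on the higher side.

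Detoxification enzymes, grouped by gene symbol after the data were seen, had more members called lower than higher in WT-old dark heads, beside 10.7% of all tested genes called lower. Of 72 tested cytochrome P450 genes 32 were lower and 5 higher (median log2 fold change -0.31), of 29 glutathione S-transferase genes 11 were lower and none higher (-0.34), and of 19 UDP-glycosyltransferase genes 8 were lower and none higher (-0.41). Medians in WT were -0.05, -0.12 and -0.13. Several members stood apart from WT in the light group. Cyp6d2 measured 8.43, 10.9 and 13.5 CPM in WT-old dark heads and 20.2, 30 and 46 CPM in WT-old light heads, against 8.82 to 20.9 CPM in WT (log2 -1.51, adjusted p = 9.8e-06). Ugt37A3 measured 0.502, 3.47 and 13.1 CPM in WT-old dark heads and 71.4, 110.4 and 506 CPM in WT-old light heads, against 2.88 to 15 CPM in WT (log2 -5.20, adjusted p = 1.4e-05). For Cyp6d2 and Ugt37A3 the WT-old dark values thus lay largely in the WT range and the WT-old light values above it. These genes were singled out after their values were seen.

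Over all genes that differed from WT, the dark group was more often the one outside the WT range. Of the 285 lower genes, the median of the WT-old dark libraries lay below every WT library in 192, and the median of the WT-old light libraries lay above every WT library in 123. Of the 74 higher genes, the WT-old dark median lay above every WT library in 44, and the WT-old light median below every WT library in 20. Over all tested genes, 21.1% of WT-old dark medians and 16.9% of WT-old light medians lay outside the WT range. Of all 9969 genes, the WT-old dark median lay below every WT library in 1063 and above in 1043. The WT-old light median lay below in 716 and above in 964. The genes that differed were picked by a test on these same values, so their counts follow in part from that choice and are a description only.

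When each hour of the day had its own level, tim, per, vri, Pdp1, Clk and cry changed in the same direction at both ages. In that model the size of the change differed between ages, by its test, for per and vri. Its p-values measured the spread within an hour, and WT ZT4 and ZT16 lacked a library from the other sampling day. With group means and any single library left out, neither per nor vri was called at either age. Their age difference then had adjusted p of at least 0.725 (per) and 0.823 (vri). tim measured 620.5, 1210 and 1243 CPM in WT-old dark heads and 199.9, 242 and 759.8 CPM in WT-old light heads, and 676 to 1396 CPM in WT dark and 205 to 975 CPM in WT light heads. Its log2 fold change was 1.36 in WT-old (adjusted p = 0.031) and 1.18 in WT (adjusted p = 0.47), and the call in WT-old was lost without any of 8 single libraries (adjusted p for tim between 0.0139 and 0.0721 over all single libraries). The spread came from the course within each phase, since tim stood at 1207 to 1243 CPM at ZT12, ZT16, ZT36 and ZT40 of WT-old and at 656 and 620.5 CPM at ZT20 and ZT44. With a level for each hour of the day, tim differed by 1.54 (adjusted p = 9.2e-10) in WT-old and by 1.65 (adjusted p = 7.3e-09) in WT. In that model Pdp1, a clock activator, changed by 0.69 and 0.90, and Clk by -0.71 and -0.72, without a called difference between the ages. The repressor vri changed by 0.84 in WT-old and 1.15 in WT (difference -0.31, adjusted p = 0.0088), and per by 0.98 in WT-old and 0.59 in WT (difference 0.39, adjusted p = 0.0041). cwo, a further repressor, showed no called change in either model.

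cry, the blue light receptor of the clock, was called lower at both ages. It measured 62.4, 101 and 119.6 CPM in WT-old dark heads and 174, 251 and 292 CPM in WT-old light heads, a log2 fold change of -1.33 (SE 0.183, adjusted p = 2.9e-05). In WT it measured 67.6 to 123 CPM in dark libraries and 189 to 301 CPM in light libraries, with -1.26 (adjusted p = 0.0088). The groups did not overlap at either age, and the difference between the ages was -0.07 (adjusted p = 0.92).

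The 22 genes called in both ages, 7 higher and 15 lower, had median absolute log2 fold changes of 0.73 in WT-old and 0.64 in WT, and none differed between the ages. CG10175 measured 107, 120.0 and 139.5 CPM in WT-old dark heads and 51.3, 63.4 and 77.7 CPM in WT-old light heads (log2 0.94, adjusted p = 3.7e-07), and 88.1 to 97.6 CPM in WT dark and 52.8 to 67.6 CPM in WT light heads (log2 0.62, adjusted p = 0.0088). firl measured 15.1, 17.7 and 29.3 CPM in WT-old dark heads and 33.4, 35.5 and 40.4 CPM in WT-old light heads (log2 -0.83, adjusted p = 0.00028), and 17.3 to 27.4 CPM in WT dark and 41.6 to 50.8 CPM in WT light heads (log2 -0.97, adjusted p = 0.0088). Neither gene overlapped between dark and light libraries at either age. The other genes of the 10 with the smallest p were Cyp305a1 (-0.67 in WT-old and -0.66 in WT), CG11951 (-0.98 and -1.01), CG31100 (0.78 and 0.53), CG9451 (-0.77 and -0.64), Nt5a (-0.64 and -0.54), the tyrosine aminotransferase gene Tat (-0.71 and -0.65) and CG8925 (1.02 and 0.77), all with an adjusted p of 0.038 in WT.

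Of these 10, cry, CG10175 and firl kept their call in WT when any single library was left out, and the other 7 lost it at least once. None of the 10 was called in WT without the libraries that held body-tissue genes, a fit with 3 WT dark and 4 WT light libraries. In the fit to 3 genotypes at Day 27 all 22 genes were called in the same direction. Among the 22, chosen after their values were seen, Glys, glycogen synthase, had log2 fold changes of -0.26 in WT-old and -0.42 in WT, and AGBE, the glycogen branching enzyme, -0.58 and -0.57. When each hour of the day had its own level, 335 genes were called with the same sign at both ages, including all 22, out of 3558 called in WT-old and 469 called in WT.

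**Figure D5:**
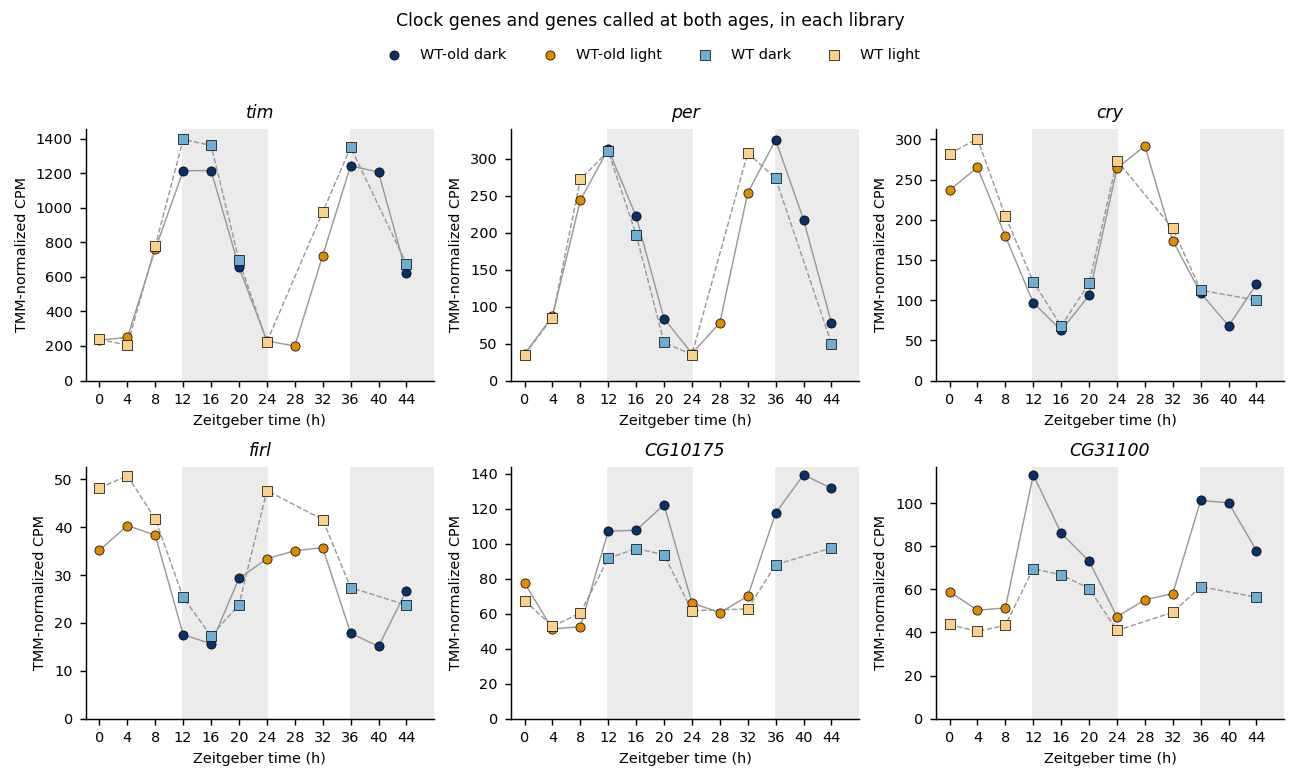
TMM-normalized CPM (linear axes from 0) of tim, per, cry, firl, CG10175 and CG31100 against Zeitgeber time in hours, 1 point per library, circles for WT-old and squares for WT, with dark hours shaded. cry at 62.4 to 119.6 CPM in WT-old dark heads and 67.6 to 123 CPM in WT dark heads follows the same course at both ages, whereas tim and per overlap between phases.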

How the data were processed

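Heads were sampled every 4 h. Per the labels and the study's methods, stranded mRNA libraries were read as single reads, aligned to D. melanogaster Release 6 with STAR 2.4.2a and counted with featureCounts (base calls by bcl2fastq 2.20, submitters' processing notes); the authors deposited raw counts per gene. No per-gene normalization preceded deposit. The 17490 gene IDs were named through the Ensembl annotation of Release 6 (17288 matched). The study's filter dropped every gene whose CPM was below 1 in over 28 of all 46 libraries and kept 9969. CPM used TMM factors (WT-old dark 1.07 to 1.11, WT-old light 0.965 to 0.994). edgeR 4.0.16 (R 4.3.3) fitted 4 group means to the 22 WT-old and WT libraries. Quasi-likelihood tests covered dark minus light at each age and their difference, with Benjamini-Hochberg adjustment over all tested genes and a threshold of 0.05. Log2 fold changes came from these fits with the default prior count, and a prior count of 2 was used for log2 CPM only. The test was also run on simulated data. SD, medians and overlaps used Python 3.11.15.

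Lists and members were chosen with earlier results of these data known. Named were the genes of the sex, MSL and clock lists, the 10 smallest p higher and lower (at least 2-fold, no overlap), the 10 for both ages and the 10 for the age difference, and up to 4 called genes per other list, 84 in all. Of these, 33 overlap another annotated gene, 7 on the same strand, and the strand setting of the counting was not given in the sources used here. The alternatives were DESeq2 1.42.0, RLE or autosomal TMM scaling, other filters, each age alone, all 46 libraries, all 3 Day 27 genotypes, hour levels, day and timepoint blocks, and libraries left out. No 2 libraries of a group agreed within sampling noise (smallest chi-square per gene 6.22).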

Additional observations from a re-analysis of the deposited data

Results flagged for a closer look

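Among 168 groups of named genes (WT-old dark or WT-old light, 6 libraries each), 13 held 1 library beyond the 95% limit of Dixon's test, where chance gives about 1 in 20. In WT-old dark heads the high libraries were ZT12 for Cpr64Ac (4.59 CPM), Obp56e (169 CPM) and ATPCL (350.0 CPM), ZT36 for Fbp1 (0.869 CPM), ZT20 for mia (8.38 CPM) and ZT44 for Mst98Ca (0.0627 CPM), and the low ones ZT44 for CG13360 (15.1 CPM) and ZT40 for CG9451 (35.9 CPM). In WT-old light heads ZT8 was high for CG43402 (87.9 CPM), ZT24 for ACC (873 CPM), ZT4 for Rh6 (1009 CPM) and ZT32 for Mst98Ca (15.5 CPM), and ZT0 was low for Cpr100A (1.93 CPM).

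The change between dark and light differed between WT-old and WT, by the test of the difference itself, in 27 named genes. The difference of log2 changes (WT-old minus WT) was positive in 6: roX1 (0.81), fl(2)d (0.27), a10 (0.81), CG9150 (0.98), Cpr100A (0.90) and mia (0.62). Of the 27, 19 were called under every alternative run. Without single libraries the call was lost in 16 of 22 fits for Cpr100A and srp, 13 for mia and 3 for fl(2)d. It was lost without the libraries that held body-tissue genes for fit (adjusted p = 0.075), Fbp1 (0.126), Lsd-1 (0.0604), a10 (0.0779), srp (0.177), mia (0.115) and fl(2)d (0.194). Cpr100A, a10, srp, mia and fl(2)d were also not called under 3 or more further alternatives. Among the sex-linked and fat body genes it was negative in Yp3 (-4.76), fit (-3.34), Fbp1 (-2.82), Apoltp (-0.98), Lsd-1 (-0.78), Lsd-2 (-0.67), FASN1 (-0.75) and srp (-0.46). Among the remaining genes it was negative in Ndg (-3.24), Obp83cd (-3.05), Nepl4 (-2.63), Obp56e (-2.58), CG43402 (-2.23), Root (-1.81), Ttc30 (-1.48), CG33120 (-1.38), Acox57D-d (-1.26), pyd3 (-1.22), CG13360 (-1.03), su(r) (-1.02) and CG42336 (-0.79).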

How the results depend on the processing

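Limits: timepoints stood in for replicates, the libraries with little yolk RNA were all WT-old dark libraries, and the WT contrast had 5 libraries a side. Genes higher and lower in WT-old numbered 542 to 769 and 888 to 1103 over leaving out each library, and 1799 and 1759 with hour levels. The corresponding WT counts ran from 2 to 13 and 3 to 20, genes called at both ages from 1 to 8 and 3 to 18, and genes that differed between ages from 41 to 91 and 217 to 345. The count of 74 higher genes that differed moved to between 41 and 46 without WT ZT44 (42), WT ZT24 (46), WT ZT32 (44), WT-old ZT20 (41) or WT-old ZT28 (44). The WT counts and those at both ages moved by over 1.5 times without most single WT libraries.

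Genes higher and lower in WT numbered 39 and 60 with DESeq2, 334 and 299 over 3 genotypes, 4 and 7 with each age alone, 187 and 282 with hour levels, 3 and 3 without a filter, 40 and 60 without ZT12 and ZT36, 93 and 83 without the hours of the light switch, and 1 and 0 without libraries with body-tissue genes; 26 were lower in the fit to 46 libraries. At both ages the counts were 23 and 46, 79 and 127, 2 and 7, 124 and 211, 2 and 3, 31 and 47, 65 and 62, and 0 and 0 under these settings in the same order. Higher and lower genes that differed between ages numbered 137 and 431 with DESeq2, 306 and 793 over 3 genotypes, 388 and 676 with hour levels, 12 and 184 without the hours of the light switch, and 14 and 171 without libraries with body-tissue genes; 45 were higher without a filter and 25 without ZT12 and ZT36.

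Libraries of the same sampling day did not deviate together (mean r 0.0352, lowest -0.225), so the day does not pair them. With sampling day as a replicate block, 688 genes were higher in WT-old, 2 higher and 3 lower in WT, and 1 higher and 3 lower at both ages. Mst98Ca ran from -8.84 to 1.70 over single libraries, the upper value without ZT32, and turned to 1.73 without libraries with body-tissue genes. Of the named genes' log2 fold changes in WT-old, 1819 of 1848 kept their side of the threshold and direction over single libraries, and 980 of 1006 over the other alternatives.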

Other observations

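Cytosolic ribosomal protein genes, grouped by symbol after the data were seen, were lower in WT-old dark heads in 20 of 75, beside 10.7% of all tested genes, and higher in none, beside 7.36%, with a median log2 fold change of -0.27 beside 0.02 in WT. RpL12 averaged 722 ± 36.4 CPM in WT-old dark heads and 925 ± 77.2 CPM in WT-old light heads (SD, n = 6 each, log2 -0.36, edgeR adjusted p = 0.00026). RpS27A averaged 821 ± 93 CPM in WT-old dark heads and 1118 ± 135 CPM in WT-old light heads (log2 -0.45, adjusted p = 0.00072). The count was 21 with RLE scaling, 20 with TMM from autosomal genes and 26 with DESeq2.

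Odorant binding protein genes went both ways, with 9 of 27 lower (beside 10.7% of all tested genes) and 4 higher (beside 7.36%), or 7 higher with DESeq2. Obp99a, chosen after its values were seen, measured 49.7 CPM at ZT12, 29.2 CPM at ZT36 and 0.188 to 0.406 CPM in the other 4 WT-old dark libraries, against 78.2 to 146 CPM in WT-old light libraries (log2 -3.15, adjusted p = 0.013). In WT, Obp99a measured 104 to 291 CPM in dark libraries and 77.8 to 108 CPM in light libraries. Its 2 levels among the WT-old dark libraries had the same order as those of the yolk protein genes, and its difference from WT was not called (adjusted p = 0.059). Obp99d rose, with 8.31 to 13.6 CPM in WT-old dark heads and 2.4 to 6.66 CPM in WT-old light heads (log2 1.08, adjusted p = 0.0032).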
